A study of Mus musculus with 2 samples.

Results

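The 45 genes described here encode the machinery that copies DNA in S phase and the enzymes that make its building blocks. They were chosen by name: the subunits of the replicative helicase and of the complexes that load and activate it, the replicative polymerases with their clamp and clamp loader, the single-strand binding and lagging-strand factors, the kinase and cyclins that start S phase, and the enzymes of deoxynucleotide supply. All 45 were found among the 16774 named genes with a level on these arrays. The rule that lists them uses no measured value, but the members were chosen with earlier results of these data known. The spleens of mice were profiled on 2 Agilent arrays with 1 colour (Cy3) each. One array was hybridised with RNA of spleens treated with phosphate-buffered saline (PBS), which the design names as the control, and the other with RNA of spleens remodelled with silica (SiO2). Both groups were female spleen tissue collected at day 19, counted from the first injection, and each was a pool of 5 spleens. Strain, age, genotype, dose and the route and number of injections are not given in the sources used here. Both pools went through the same RNA kit, one designed for blood, with separate lysis of its red and its white cells, and through a step that removes globin message. With 1 pooled array per group there is no spread between animals, so neither a test nor an error over animals is given, and every difference is between these 2 pools.

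A cell copies its genome once per division. In G1 the origin recognition complex, with Cdc6 and Cdt1, loads the ring of MCM2 to MCM7 onto DNA; in S phase the Cdc7-Dbf4 kinase and cyclin-dependent kinases activate it through Cdc45, GINS and Mcm10, and polymerases alpha, delta and epsilon then copy both strands. Many of these genes are transcribed under control of E2F factors, which the retinoblastoma family restrains in resting cells. The mouse spleen holds dividing lymphocytes and, in its red pulp, erythroid and myeloid precursors, so these genes are a readout of cycling cells in that organ.

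The promoters show a feature that the choice of genes did not use. The RefSeq promoter table (GRCm38.p6, 250 bases before to 50 after each start) held windows for 36 of the 45 genes, and none for Gins1, Gins2, Gins4, Gmnn, Mcm4, Ccne2, Pole, Prim2 and Rfc2. An E2F word, searched as TTTCCCGC, TTTCGCGC, TTTGCCGC or TTTGGCGC on both strands with overlapping matches counted separately, lay in the window of 13 of the 36 genes, or 36.1%. It lay in 3.93% of the 13311 genes with a level and a window, and in 2.26% of all 32851 windows. Of the members with a single start, 7 had a word before that start, and 6 of these are shown. Mcm5 and Mcm6 were taken because they hold more than 1 such word. Of those with 1, the extremes of the expression differences were taken, Orc1 and Cdc6 at the top and Pola1 and Gins3 at the bottom. Rfc3, which lies between them, is not shown. Each line is the 200 bases before the start, read 5′ to 3′ on the strand of the gene, with the E2F words in capitals. The windows are chr4:108579254-108579453 on the plus strand for Orc1, chr11:98907951-98908150 plus for Cdc6, chr8:75109309-75109508 plus for Mcm5, chr1:128359706-128359905 minus for Mcm6, chrX:93632156-93632355 minus for Pola1 and chr8:95633359-95633558 plus for Gins3.
Orc1: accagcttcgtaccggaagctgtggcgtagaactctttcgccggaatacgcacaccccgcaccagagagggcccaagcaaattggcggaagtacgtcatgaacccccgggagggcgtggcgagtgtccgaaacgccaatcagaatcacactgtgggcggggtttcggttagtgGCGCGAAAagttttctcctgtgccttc
Cdc6: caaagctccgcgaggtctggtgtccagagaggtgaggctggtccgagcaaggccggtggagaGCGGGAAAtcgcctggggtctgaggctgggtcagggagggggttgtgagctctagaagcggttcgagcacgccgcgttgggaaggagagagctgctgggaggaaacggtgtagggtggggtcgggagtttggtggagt
Mcm5: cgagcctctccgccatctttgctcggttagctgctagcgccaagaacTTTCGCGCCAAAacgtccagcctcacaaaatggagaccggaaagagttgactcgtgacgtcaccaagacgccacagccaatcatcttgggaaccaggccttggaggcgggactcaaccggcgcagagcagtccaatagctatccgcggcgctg
Mcm6: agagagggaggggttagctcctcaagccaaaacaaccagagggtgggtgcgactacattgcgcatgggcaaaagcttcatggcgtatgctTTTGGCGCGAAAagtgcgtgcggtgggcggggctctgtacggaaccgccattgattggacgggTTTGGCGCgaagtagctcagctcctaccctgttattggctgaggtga
Pola1: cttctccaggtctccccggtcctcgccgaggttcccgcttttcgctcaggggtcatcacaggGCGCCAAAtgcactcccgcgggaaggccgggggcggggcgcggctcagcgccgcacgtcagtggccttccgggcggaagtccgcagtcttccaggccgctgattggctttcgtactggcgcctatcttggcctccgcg
Gins3: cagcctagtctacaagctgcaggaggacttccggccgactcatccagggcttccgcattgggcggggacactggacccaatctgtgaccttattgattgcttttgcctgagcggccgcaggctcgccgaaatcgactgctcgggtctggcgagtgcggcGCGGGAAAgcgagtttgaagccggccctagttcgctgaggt

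The first base of the word lay 27 bases before the start in Orc1, 41 in Gins3, and 138 in both Cdc6 and Pola1. Mcm5 held 2 overlapping words, at 153 and 149 bases, and Mcm6 held 3, of which those at 110 and 106 overlap and the last lies at 47. A match is a run of letters and not a site known to be bound. The expression differences given below did not separate by it: the 13 genes with a word had a median log2 difference of 0.87 and the 23 without had 0.88. The CCAAT word lay in 55.6% of the member genes against 42.2% of the genes with a level. The cell cycle homology words TTTGAA and TTCGAA, likewise on both strands, lay in 25% against 17.5%. The windows of members had a median GC content of 60.1%, and those of the genes with a level had 58.8%.

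The level of a gene below is log2 of its background-subtracted spot signal minus the 75th percentile of the array, so that 0 marks that percentile. A difference is the SiO2 level minus the PBS level, and a difference of 1 is 2-fold. The level depends on the probe as well as on the RNA, so levels are compared between the pools and not between genes. The 75th percentile of signal was 670 on the array of the PBS pool and 469 on that of the SiO2 pool, so this scaling raises every SiO2 level by 0.51 against the unscaled signals. Repeated spots of a probe give only the part of the technical error that lies within these arrays. Over 206 probes with at least 10 spots, the standard deviation of the difference was 0.059 at the median and 0.204 at the 95th percentile. Error from RNA preparation, labelling and hybridisation is not in these values and cannot be measured with 1 array per pool. Each member was read from a single spot per probe, and all 45 were well above background on both arrays.

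The replication genes as a set were higher in the SiO2 pool. Of 45, 44 lay above 0 and only Gins3, a GINS subunit, lay below; of all named genes, 52.3% lay above 0. At least 2-fold higher were 18 members (40%), against 6.62% of all named genes, and none was at least 2-fold lower, against 3.70%. At least 1.5-fold higher were 35 (77.8%), against 16.0%. The median difference of the members was 0.88, or 1.84-fold, with quartiles of 0.61 and 1.08, while the median over all named genes was 0.03. In tissue RNA, more cells of a cycling type and more of these messages per cell cannot be told apart.

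**Figure D1:**
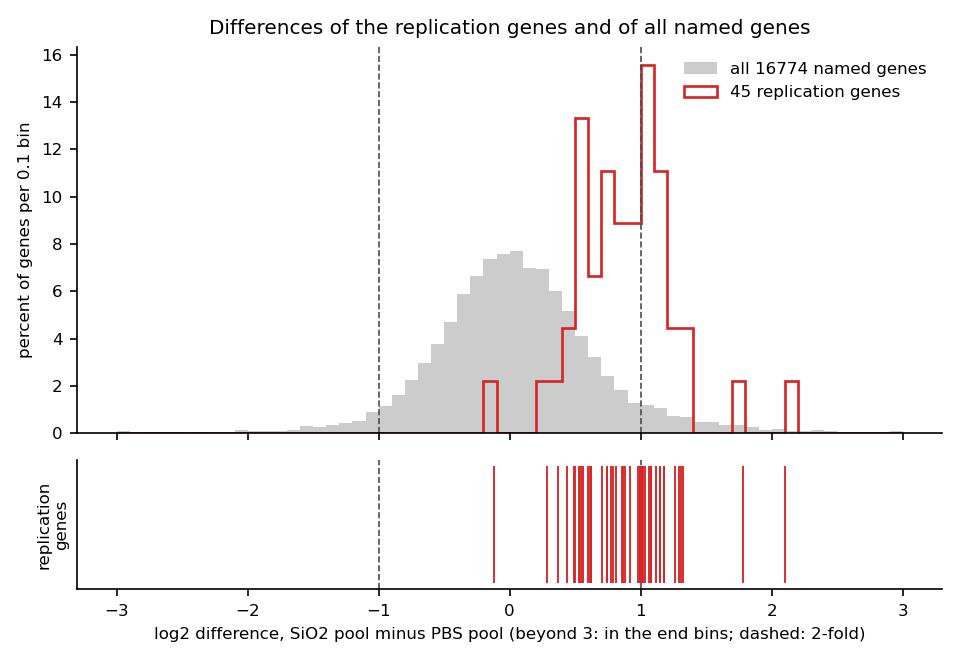
Distribution of the log2 difference, SiO2 pool minus PBS pool, for the 16774 named genes (grey, percent of genes per bin) and the 45 replication genes (red outline, and 1 tick per gene in the lower panel), with dashed lines at 2-fold. The replication genes have a median of 0.88 against 0.03 for all genes, and without scaling between the arrays these medians are 0.36 and -0.48.

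The member median lay above the all-gene median by 0.64 to 0.91 over the settings tried, while the counts moved with the scaling. Without any scaling, the member median was 0.36 and the all-gene median -0.48, and 39 of 45 members then had the higher signal in SiO2. A scaling that shifts a whole array moves all its genes alike. The distance of 0.85 between these medians was therefore fixed, here and in the next setting, and is no check. Shifting the SiO2 array so that the median of 22 B cell and T cell markers was 0 put the members at 1.19 and all genes at 0.34, with 31 members at least 2-fold higher. The split of all genes at least 2-fold higher and lower was 6.62% and 3.70% in the values used here, 12.5% and 1.79% after the shift to lymphocyte markers, and 2.43% and 16.1% unscaled. A difference between -0.31 and 0.51 therefore changes sign under one of these 2 choices. Of the members, Dut, Pold1, Pold2, Rfc1 and Rpa1 turn below 0 only in the unscaled signals, and Gins3 turns above 0 only after the lymphocyte shift.

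**Figure D2:**
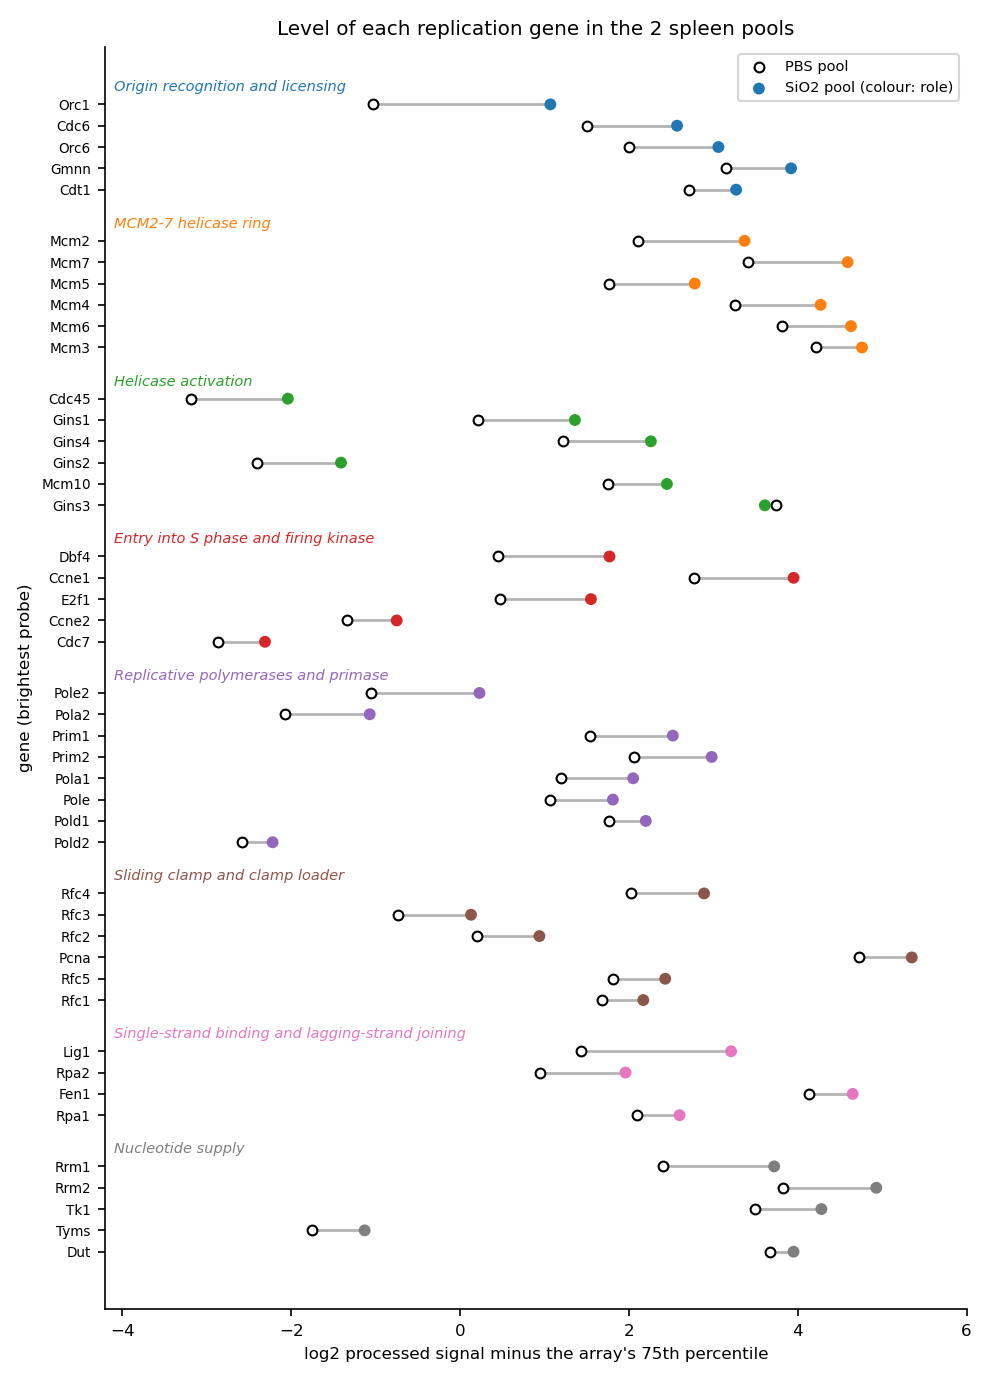
Level of each of the 45 genes in the PBS pool (open circle) and the SiO2 pool (filled circle, coloured by role), as log2 processed signal minus the 75th percentile of the array, 1 array per pool. The SiO2 circle lies to the right for 44 genes and to the left for Gins3, and without scaling it would lie to the left for 6.

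Origin recognition and licensing was the role that held the largest difference. Orc1, the ATP-binding subunit of the origin recognition complex whose amount varies over the cell cycle, had a level of -1.03 in PBS and 1.07 in SiO2. The spot signals were 327 and 984, and the scaled difference of 2.10 is 4.29-fold. Orc6, the smallest subunit of that complex, had signals of 2678 in PBS and 3915 in SiO2, which is 2.09-fold after scaling. Both subunits were thus past 2-fold. Cdc6, the ATPase that joins the complex to load MCM rings, had signals of 1891 and 2796, a difference of 1.08, and the dimmer of its probes gave a larger one. Cdt1, which brings the MCM ring to the origin, was 1.47-fold higher (2.71 in PBS, 3.27 in SiO2). Geminin (Gmnn), the inhibitor that holds Cdt1 in check after S phase begins, was 1.71-fold higher (3.15 in PBS, 3.92 in SiO2). The loader and its inhibitor both lay short of 2-fold, and the 5 genes of this role had a median of 1.06.

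All 6 subunits of the MCM2-7 ring, the motor that unwinds DNA at the fork, were higher in SiO2, 4 of them at least 2-fold. Mcm2 was the highest in difference, with levels of 2.11 and 3.37 (1.26, or 2.39-fold). Mcm7 followed with 3.41 and 4.59 (1.18). Mcm5, with 1.76 and 2.78, and Mcm4, with 3.26 and 4.27, sat on the 2-fold line at 1.02 and 1.01. The last subunits were under it. Mcm6 was at 3.81 and 4.63, a difference of 0.81. Mcm3 was at 4.22 and 4.76, and its 0.54 was the smallest of the ring. The ring is built from equal numbers of its subunits, while their messages differed between the pools by 1.45-fold to 2.39-fold.

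Helicase activation held both a run of genes near 2-fold and the 1 gene that was not higher. Cdc45, which binds the loaded ring to form the active helicase, was dim, with signals of 73.3 and 114, and had a difference of 1.15 that became 0.81 under another background correction (normexp). The tetramer GINS, which completes that helicase, was split. Gins1 went from 0.21 in PBS to 1.36 in SiO2 (2.21-fold). Gins4 stood at 1.22 and 2.26, or 2.05-fold. Gins2, also dim, stood at -2.41 and -1.41, or 1.99-fold. These 3 subunits lay within a narrow range, and the fourth did not share it. Gins3 had signals of 8920 in PBS and 5742 in SiO2, levels of 3.74 and 3.61, and a difference of -0.12, or 1.09-fold lower. That is smaller than the 0.204 seen among repeated spots and lies 0.41 below the next member. Its promoter window, shown in part above, holds both the E2F word and CCAAT. Mcm10, which helps the helicase to start, was 1.63-fold higher, at 1.75 and 2.45.

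Among the genes for entry into S phase, Dbf4, the activating subunit of the Cdc7 kinase, went from 0.45 to 1.77, which is 2.48-fold. The kinase itself, Cdc7, was read from dim spots at -2.87 and -2.31. Its brightest probe gave 0.55 and its other probe 0.94, so the kinase lay under 2-fold by both. E2f1, a transcriptional activator of many genes of this set, stood at 0.47 and 1.55, which is 2.11-fold. Cyclin E1 (Ccne1), the partner of Cdk2 at the start of S phase, stood at 2.77 and 3.95, a difference of 1.18 (1.49 by its other probe). Cyclin E2 (Ccne2) stood at -1.34 and -0.75, a difference of 0.60. Of the paired cyclins, 1 was past 2-fold and the other was 1.51-fold higher.

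**Figure D3:**
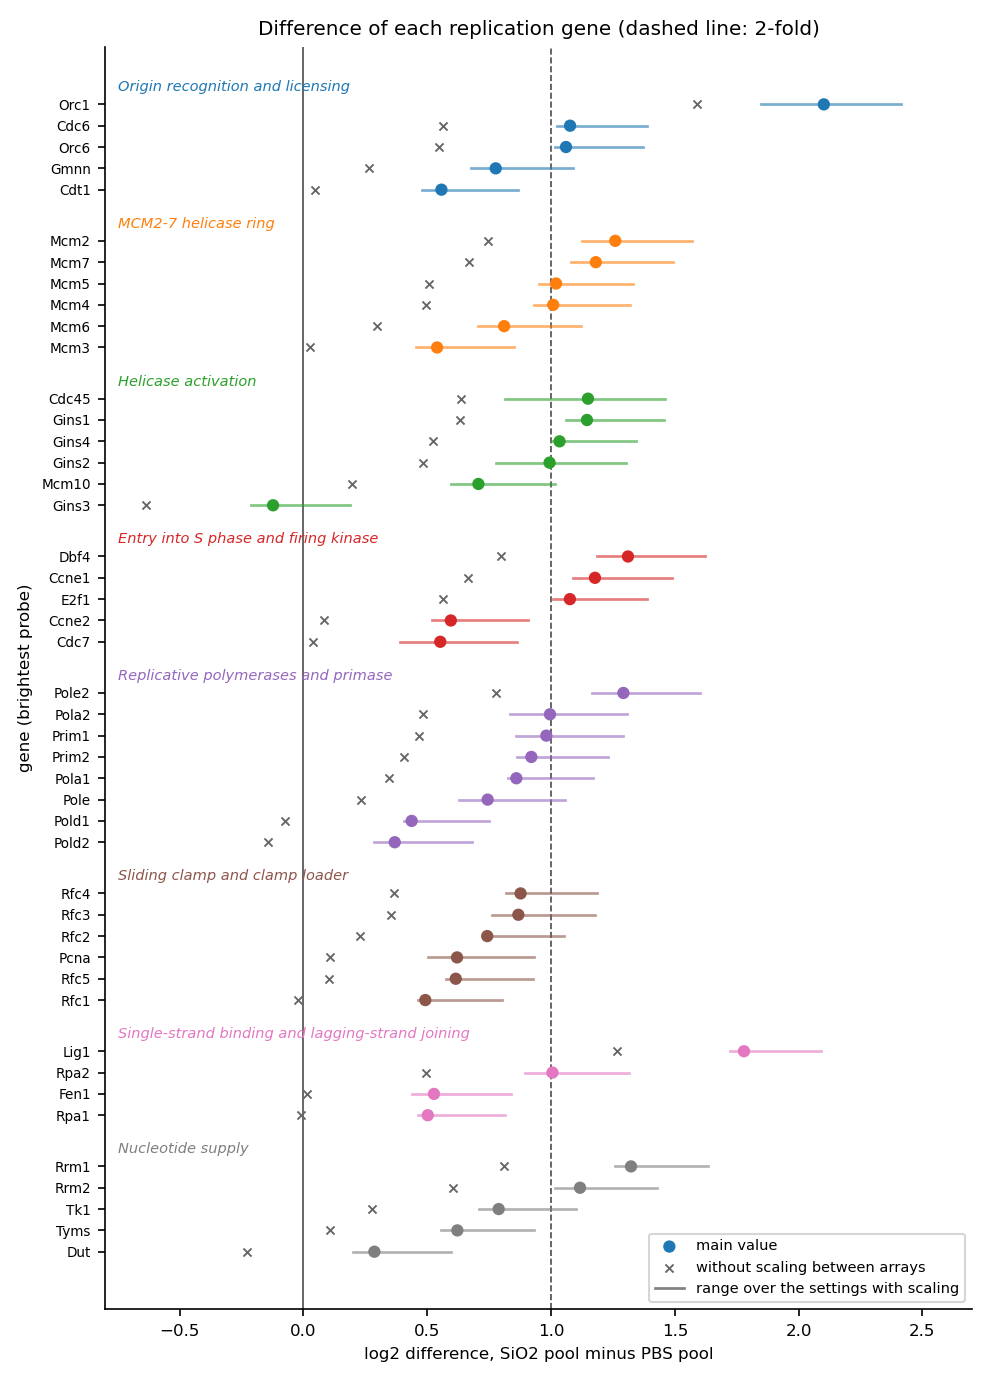
Log2 difference, SiO2 pool minus PBS pool, of each gene (filled circle), with its range over the settings that scale the arrays (bar) and the unscaled value (cross); the dashed line is 2-fold and the bar is no replicate error. Orc1 (2.10) and Lig1 (1.78) stand to the right of the others, Gins3 (-0.12) to the left of 0, and 6 crosses lie below 0.

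The replicative polymerases were higher as a rule but mostly short of 2-fold: 1 of 8 reached it. Pole2, the second subunit of polymerase epsilon, which copies the leading strand, stood at -1.06 and 0.23, or 2.45-fold. Pole, its catalytic subunit, stood at 1.07 and 1.81, a difference of 0.74 (0.51 by its other probe). The 4 subunits of polymerase alpha-primase, which lays down the primers, lay close together. Pola2 was at -2.07 and -1.07, or 1.99-fold. Prim1, the catalytic primase, was at 1.54 and 2.52, or 1.97-fold. Prim2 was at 2.06 and 2.98, or 1.89-fold. Pola1, the catalytic subunit of polymerase alpha, was at 1.19 and 2.05, or 1.81-fold. The whole complex thus spanned 1.81-fold to 1.99-fold. Polymerase delta, which copies the lagging strand, lay lower. Pold1, its catalytic subunit, was at 1.76 and 2.20, or 1.35-fold. Pold2 was at -2.58 and -2.22, or 1.29-fold, and both delta subunits had the lower signal in SiO2 before scaling.

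None of the 6 genes of the sliding clamp and its loader reached 2-fold, and 5 were at least 1.5-fold higher. Pcna, the clamp that keeps polymerases on DNA, stood at 4.73 and 5.35, a difference of 0.62 (1.54-fold). Rfc4 had the largest difference of the loader, 0.88 from 2.02 and 2.89, with 1.18 by its other probe. Rfc3 came next, 0.87 from -0.74 and 0.13. The small loader subunits other than these were closer to Pcna. Rfc2 was at 0.20 and 0.94, or 1.67-fold. Rfc5 was at 1.81 and 2.43, or 1.53-fold. Rfc1, the large subunit, had the smallest difference of this role, 0.49 from 1.68 and 2.17. Pcna, which is often used as a marker of cycling cells, was thus below the median of the set.

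Lagging-strand joining held the second largest difference of all 45. Lig1, the ligase that seals Okazaki fragments, had signals of 1808 and 4350 and levels of 1.43 and 3.21, a difference of 1.78 (3.43-fold). Fen1, the nuclease that trims the flaps which Lig1 then joins, stood at 4.13 and 4.65, or 1.44-fold. These 2 enzymes act one after the other and differed in size of difference by over 1 on the log2 scale. Rpa2, the middle subunit of the single-strand binding protein, was at 0.95 and 1.96, or 2.01-fold. Rpa1, the large subunit, was at 2.10 and 2.60, or 1.42-fold. The other DNA ligases did not share the difference of Lig1. Lig3 was at -0.33 by its brightest probe and 0.12 by its other probe, and Lig4 was at -0.01.

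Nucleotide supply was led by ribonucleotide reductase, the enzyme that makes deoxynucleotides from ribonucleotides. Rrm1, its large subunit, stood at 2.40 and 3.72, or 2.50-fold. Rrm2, its small subunit in S phase, stood at 3.82 and 4.93, or 2.17-fold. Rrm2b, the small subunit used outside S phase, had a difference of -0.52 by its brightest probe, with signals of 240 and 117. Its other probe gave -0.13, a value whose sign depends on the scaling. By the brightest probes, Rrm2 and Rrm2b were thus on opposite sides of 0, by 1.64 on the log2 scale. Thymidine kinase 1 (Tk1), the cytosolic enzyme of the S-phase salvage route, stood at 3.49 and 4.28, or 1.73-fold. Its mitochondrial counterpart Tk2 was at -0.02. Thymidylate synthase (Tyms), which makes the thymine nucleotide, stood at -1.75 and -1.13, or 1.54-fold. Dut, which removes dUTP, stood at 3.67 and 3.95, or 1.22-fold, and was the lowest of the members above 0.

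Ordered by difference, the set was a continuous run with 3 genes apart from it. Orc1 lay 0.32 above Lig1, and Lig1 lay 0.46 above Rrm1, the next in order. From Rrm1 to Dut no 2 neighbours were more than 0.085 apart, less than the 0.204 of repeated spots, so neighbours in that order cannot be told apart on these arrays. The 2-fold line falls inside this run: 11 members lay within 0.1 of it, 7 at or above and 4 under. The role medians ran from 0.68 for the clamp and loader through 0.77 for single-strand binding and joining, 0.79 for nucleotide supply and 0.89 for the polymerases to 1.01 for both the MCM ring and helicase activation, 1.06 for licensing and 1.08 for S-phase entry. With 4 to 8 genes in a role, this order is a description, and the difference between roles was not tested. For the 5 members with a second probe, both probes were above 0 in each, and the second was larger in 4.

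Other genes of the pathway followed in part. Of 33 further replisome and origin genes, 11 passed 2-fold upward and none downward; the median was 0.82 and 27 lay above 0. The leading ones were Wdhd1, which ties polymerase alpha to the helicase, at 2.89-fold, Orc5 at 2.63-fold, Clspn, which links the fork to its checkpoint, at 2.59-fold, Chtf18, of an alternative clamp loader, at 2.43-fold, and Top2a, which untangles copied DNA, at 2.35-fold. Rpa3, the small partner of Rpa1 and Rpa2, lay at the median. The lowest was Mcmbp, which binds MCM subunits, at -0.37. Replication-coupled chromatin assembly had 7 of 11 genes at least 2-fold higher, none below 0, and a median of 1.05. Asf1b, a histone chaperone, was 3.29-fold higher, Slbp, which binds histone messages, 2.88-fold, Chaf1a, of the factor that puts histones on new DNA, 2.72-fold, Uhrf1 2.65-fold, and its partner Dnmt1, which copies DNA methylation, 2.23-fold. The S-phase checkpoint list stood closer to all genes. In it 1 of 12 was at least 2-fold higher (8.33%, against 6.62% of all named genes), Chek2 at 3.00-fold. Its median of 0.26 turns negative in the unscaled signals. Rad9a at 0.23 and Cdc25a at 0.29 lay nearest that median, and Atr, the kinase that answers stalled forks, was the lowest at -0.44.

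The supply of precursors outside the 5 members was not higher as a group. Among 25 other deoxynucleotide and thymidylate genes, 1 was at least 2-fold higher (4%, against 6.62% of all named genes). In the other direction 1 was at least 2-fold lower (against 3.70%), and the median was 0.00. Dck, the kinase that salvages deoxycytidine, was 2.10-fold higher, from 0.97 in PBS to 2.04 in SiO2. Samhd1, which breaks deoxynucleotides down and is abundant in resting myeloid cells, was 2.25-fold lower, from 4.90 to 3.73. Dguok, the mitochondrial salvage kinase, lay at the median. Of 20 genes of de novo purine and pyrimidine synthesis, none differed 2-fold in either direction and the median was -0.01. Paics was the highest at 0.96 and Ctps2 the lowest at -0.66, with Adss at -0.03 and Atic at 0.00 nearest the median. Both medians lie near 0 and change sign with the scaling.

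The regulators above the set were also mostly higher. Of the 12 genes of the E2F and retinoblastoma family other than E2f1, 7 passed 2-fold upward and none downward, around a median of 1.12. E2f8 and E2f7, which repress E2F targets late in S phase, had differences of 1.71 and 1.32. E2f2, an activator like E2f1, was at 1.56, while the third activator, E2f3, was at 0.18. E2f4 and E2f5, which act with the retinoblastoma relatives in resting cells, were at 0.63 and 0.19, and the repressor E2f6 was at -0.12. The partner Tfdp2 was at 1.57, and Rb1, the retinoblastoma protein that holds E2F activators back, was at 1.45. The lowest of the family was Rbl2, a relative of Rb1, at -0.25. By their brightest probes, E2f1, E2f2, E2f7, E2f8 and Rb1 were thus past 2-fold in the same pool. E2f3, E2f5, E2f6 and Rbl2 lay within the range whose sign depends on the scaling. The other probe of E2f7 gave 0.70, under 2-fold, and that of E2f3 gave 0.59. Rbl1, counted past 2-fold at 1.03, had another probe at 0.34, while that of Tfdp2 was larger at 1.83. With the mean over probes, the family median was 0.85. Among 10 measured kinases and cyclins of G1 and S, 2 passed 2-fold upward and 1 downward, around a median of 0.74. Ccna2, the S-phase cyclin, was 3.53-fold higher and its kinase Cdk2 2.72-fold higher. Ccnd1, a cyclin of G1, was 2.78-fold lower, from 1.55 to 0.08. Nearest the median were Cdk1 at 0.69, whose 3 probes ran from -0.07 to 0.69, and Cks1b at 0.79.

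**Figure D4:**
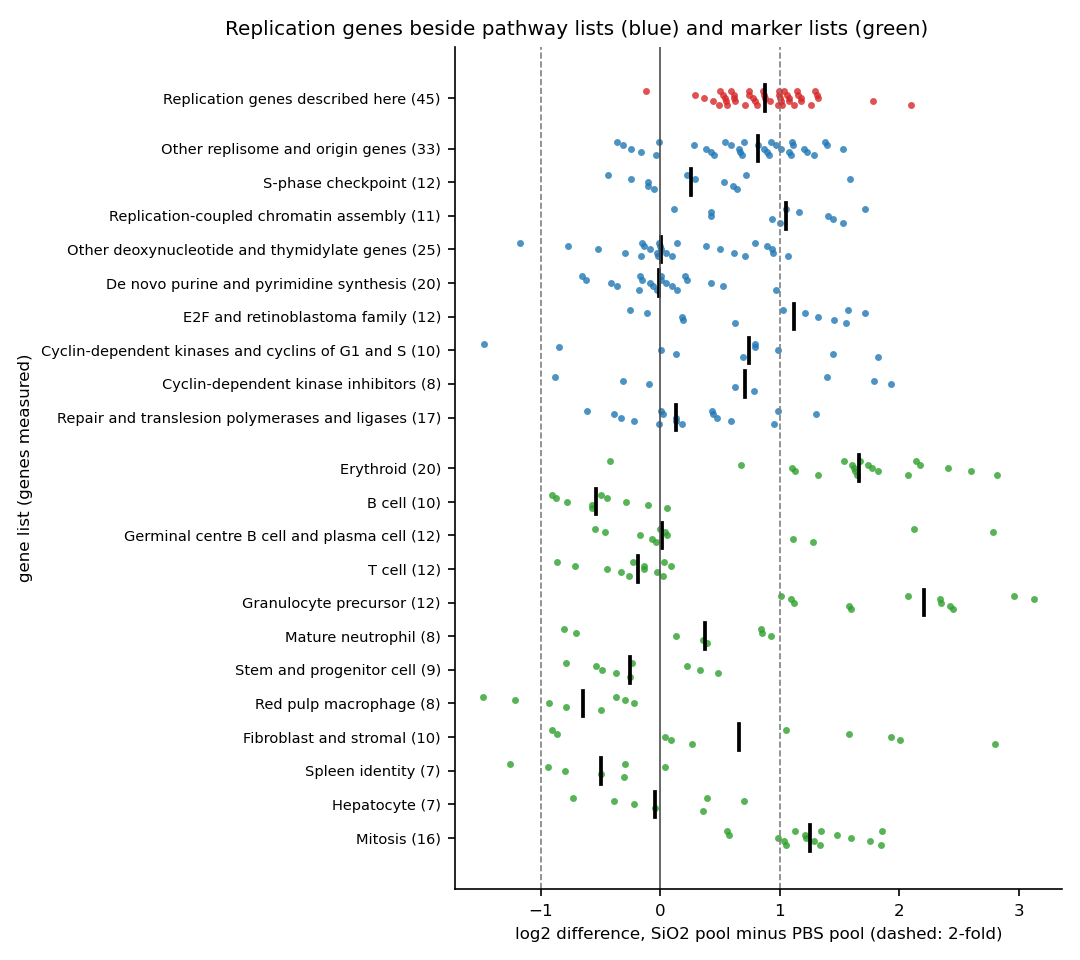
Log2 difference, SiO2 pool minus PBS pool, of every measured gene (1 point per gene) of the replication set (red), 9 pathway lists (blue) and 12 marker lists (green), with a black bar at each median and dashed lines at 2-fold. Medians run from -0.65 for red pulp macrophage markers to 2.21 for granulocyte precursor markers, with the replication set at 0.88; medians between -0.31 and 0.51 change sign under another scaling.

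Erythroid markers, granulocyte precursor markers and mitosis genes were, like the replication genes, higher in the SiO2 pool. Germinal centre and plasma cell markers were not higher as a list. Of 20 erythroid markers, 18 passed 2-fold upward and none downward, around a median of 1.66, with Trim10 at 2.82 and Epb42 at 2.60 among them. Their summed level, relative to the 75th percentile of each array, was 164 in PBS and 383 in SiO2. Only Hemgn was lower, at -0.42, and Sptb was not well above background in PBS. All 12 granulocyte precursor markers were at least 2-fold higher, with a median of 2.21 and a summed level of 28.6 in PBS and 127 in SiO2. Of 16 mitosis genes, 13 were at least 2-fold higher, with a median of 1.25 and sums of 70.8 and 165. Nusap1 and Kif11 were both at 1.85. Cenpf was at 1.76 from dim signals of 32.7 and 77.5, and at 1.01 with normexp. Among 12 germinal centre and plasma cell markers 6 lay above 0 and 6 below, with a median of 0.02 and sums of 49.7 and 45.3. At least 2-fold higher were 4 of them, among them Mybl1 (2.13) and S1pr2 (1.27). Mybl1 was dim, with signals of 19.9 and 61.0, and was at 1.07 with normexp. The part of these cell types in the differences of the replication genes was not tested.

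The remaining marker lists did not share the direction, or shared it in part. Of all named genes, 6.62% were at least 2-fold higher and 3.70% at least 2-fold lower. In lists of this size a count of 0 lies near these shares. B cell markers had a median of -0.54, 0 of 10 at least 2-fold either way, and sums of 92.6 and 67.0. T cell markers had a median of -0.18, 0 of 12 past 2-fold, and sums of 23.9 and 19.0. Of 9 measured stem and progenitor markers none was past 2-fold, at a median of -0.25 and sums of 31.6 and 35.2; Mecom was not above background. The medians of these 3 lists lay below 0, while the sum was lower in SiO2 for the lymphocyte lists and higher for the stem and progenitor list. The largest part of that last sum is 1 gene, Hoxa9, with levels of 4.03 and 4.52. Of the 9 measured genes 6 lay below 0, so the sum is no measure of the list as a whole. Mature neutrophil markers had a median of 0.37, 0 of 8 past 2-fold, and sums of 137 and 175. Red pulp macrophage markers had a median of -0.65 with 2 of 8 at least 2-fold lower, led by Spic at -1.49, and sums of 83.0 and 53.9. Fibroblast and stromal markers had a median of 0.66 with 5 of 10 at least 2-fold higher, led by Lum at 2.80, Postn at 2.01 and Col3a1 at 1.93, and sums of 50.8 and 98.5. As a check of the labelled tissue, 7 of 8 spleen markers had a level, with a median of -0.50, Cxcl13 at -1.26 and sums of 20.9 and 14.3, while Ccl21a had no named probe. Of 10 hepatocyte markers 3, Ttr, Apoa1 and Cyp7a1, were not above background on either array, and the others had a median of -0.05 and sums of 23.2 and 19.9. Nearly all of that sum is 1 probe, that of Apoa2, with levels of 4.48 and 4.26, so it is no measure of the list as a whole. The signs of the medians of the T cell, stem and progenitor, mature neutrophil, germinal centre and hepatocyte lists depend on the scaling.

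The values that the authors deposited as a processed table, from the same 2 arrays, gave a like picture where they could be matched. Their differences lay close to those of quantile normalization here, with 2.07 for Orc1, 0.93 for Mcm4 and 0.71 for Mcm6 in both. They are thus no separate check of that setting. For 38 of the 45 genes the table holds the same probe, and 37 of these were higher in SiO2, against 46.4% of the 11098 genes in that source, with a median difference of 0.86 against 0.90 for the same genes in the spot signals. At least 2-fold higher were 12 of the 38, against 5.89% of those genes, and Gins3 was again the gene below 0.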

How the data were processed

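Each array was read from the deposited scanner file, which holds the intensity of every spot on a linear scale; the intensity used was background-subtracted by Agilent Feature Extraction, version 11.0.1.1 per the file headers, while the submitters' processing notes name 9.1. Each array had 43020 spots other than controls. Outlier spots (145 in PBS, 148 in SiO2) were dropped, none was saturated, and 75.5% and 74.9% were well above background. The log2 values deposited by the authors cover 26049 probes, with a column median of 5.68 in both. Set against log2 spot signal they had slopes of 0.994 and 1.01, which settles scale and direction. The sources used here do not say how the medians were made alike, but the member differences lay close to those of quantile normalization. All columns of values belong to the 2 arrays.

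Here, log2 intensity minus its 75th percentile over the array was computed, with repeated spots averaged. Of 39398 probes, 27217 (69.1%) took a symbol by unversioned accession from the RefSeq table of GRCm38.p6, and 12181 took none. A gene is its brightest probe among those above background on either array; 40 members had 1 probe and 5 had 2. A gene dim on 1 array was floored there at the lowest signal above background. Counts use fixed folds of 2 and 1.5. The members and lists were chosen with earlier results of these data known. Named were all members, list genes past 2-fold (up to 5 per direction, 3 for markers), genes nearest a list's median, and fixed relatives; other highest or lowest genes were picked after their values were seen. Some genes that this rule takes are left out of the text. Alternatives changed background correction (normexp on the median spot signal, since mean signals were not used here), scaling (quantile, cyclic loess, lymphocyte markers, none), probe choice, filter and source of values. The step from probe values to gene differences was tested on simulated arrays with known folds, and the other computations were not. R 4.3.3 with limma 3.58.1 and Python 3.11.15 with pandas 2.3.3 were used. The number of arrays limits the precision, and the other comparisons of the design were not analysed here.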

Additional observations from a re-analysis of the deposited data

How the results depend on the processing

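With 1 pool per group, no setting can show whether a difference exceeds that between animals, and the members rest on single spots. No member was at least 2-fold lower in any setting, and 44 of 45 were above 0 in every scaled setting except the lymphocyte shift (45) and the deposited values (37 of 38). The count at least 2-fold higher, 18, was 14 to 19 across background correction, percentile, quantile, cyclic loess, probe and filter choices and 12 of 38 in the deposited values. It was 31 when the B and T cell marker median was set to 0 and 2 without scaling, since both shift all genes alike; at 1.5-fold it was 35 and at 3-fold 2. The member median of 0.88 was 1.19 after the lymphocyte shift, 0.36 unscaled and 0.81 with normexp, where the all-gene median was 0.18. In the order S-phase entry, helicase activation, MCM ring, nucleotide supply, licensing, polymerases, single-strand binding and clamp, the role medians after the lymphocyte shift were 1.39, 1.32, 1.32, 1.10, 1.37, 1.20, 1.08 and 0.99, and unscaled 0.56, 0.50, 0.50, 0.28, 0.55, 0.38, 0.25 and 0.17. Normexp gave 1.01 for S-phase entry, 0.80 for helicase activation, 0.83 for polymerases and 0.69 for single-strand binding. Quantile normalization gave 0.95 for the MCM ring and 0.71 for nucleotide supply; the deposited values gave 0.81 for S-phase entry, 0.95 for the MCM ring and 0.56 for nucleotide supply, over fewer genes. The cause of the other moves was not tested. The unscaled values, the percentile with outlier spots and the use of the median spot signal were chosen after seeing the data. No paired analysis was possible because each group holds 1 array. Normexp gave 0.81 for Cdc45 in place of 1.15, 1.85 for Orc1 in place of 2.10 and 0.78 for Gins2 in place of 0.99.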

Other observations

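Inhibitors of cyclin-dependent kinases were also measured, and 3 of 8 passed 2-fold upward in the SiO2 pool and none downward, around a median of 0.71. Cdkn1c, which encodes the inhibitor p57, was 3.80-fold higher but dim, with signals of 106 in PBS and 283 in SiO2. Cdkn3, a phosphatase acting on these kinases, was 3.45-fold higher, and Cdkn2c, an inhibitor of Cdk4 and Cdk6, was 2.63-fold higher, with signals of 1771 and 3270. Cdkn1b at 0.63 and Cdkn2d at 0.79 lay nearest the median, and Cdkn2a was the lowest at -0.89.

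Of 17 repair and translesion polymerases and ligases, 1 passed 2-fold upward (5.88%, against 6.62% of all named genes) and none downward (against 3.70%). These counts lie near the shares over all genes. The median was 0.13 and is negative without scaling. Polh, which copies past damaged bases, was 2.46-fold higher from dim signals of 117 and 202. Poln and Xrcc1, both at 0.13, lay nearest the median.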
